A study of Mus musculus with 9 samples.

Results

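The genes of fat cells were followed in RNA from whole sciatic nerves of mice. A list of 38 adipocyte genes was used, made up of adipokines, lipid droplet proteins, enzymes of lipolysis and lipid uptake, adipogenic transcription factors and genes of brown fat. Of these, 37 were found among the 36121 genes of the table, and 34 of them reached a minimum mean of 1 and were tested, out of 15014 tested genes. They were divided into 28 genes of white fat or of fat in general, 27 of them tested, and 10 genes typical of brown fat, of which 9 were found and 7 tested. The name Elovl3-ps matched no gene of the table. Elovl3, a different gene that was looked up afterwards, was listed at 0 to 0.0830. Plin5, Ucp1 and Dio2 fell below the minimum mean and are given as values only.

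Nerves came from 9 mice aged 21 days, with 2 females and 1 male in each of 3 groups. The cKO group carried Cnp-Cre and both floxed alleles of Tardbp (Cnp-Cre; Tardbp-fl/fl), the cHet group Cnp-Cre and a single floxed allele (Cnp-Cre; Tardbp-fl/+), and the control group the floxed alleles without Cre (Tardbp-fl/fl). Tardbp encodes the RNA-binding protein TDP-43, and Cnp-Cre is active in myelinating glia, that is Schwann cells and oligodendrocytes. No wild-type mouse without floxed alleles was among the nerves. The genotype fields of 3 libraries differ from their titles, namely those of cHet mouse ID-2742 and of cKO mice ID-2744 and ID-2747, and the titles were followed. Tardbp stood at 103, 94.2 and 103 in cKO nerves, against 177, 179 and 186 in cHet nerves and 185, 194 and 217 in control nerves, so that it was low in every nerve titled cKO. Cnp, the gene that Cnp-Cre is named after, stood at 554, 799 and 498 in cKO nerves. It stood at 640, 849 and 803 in cHet nerves and at 1168, 1267 and 1700 in control nerves. The Cnp value of cHet mouse ID-2742 (640) thus lay among those of the nerves titled as carrying Cre. Values are normalized TPM throughout, which are scaled by transcript length and can be compared between genes. Values of 3 mice are given in the order ID-2744, ID-2747 and ID-2748 for cKO, ID-2742, ID-2745 and ID-2750 for cHet, and ID-2743, ID-2746 and ID-2754 for control.

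Fat cells lie in the epineurium, the outer sheath of a peripheral nerve, and in the connective tissue around it, and the labels do not say how much of this tissue was stripped off. White adipocytes store triglyceride in a single large droplet coated by perilipin and release it through a cascade of lipases. They also secrete hormones, among them adiponectin, leptin and, in mice, resistin. Brown adipocytes burn lipid for heat through uncoupling protein in their mitochondria. PPARγ and the C/EBP proteins drive the formation of both kinds.

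The 250 bases before the transcription start are shown for 4 of the white fat genes and for Ucp1, the defining gene of brown fat. These sequences are from RefSeq on GRCm38.p6, where 25 of the 38 genes were matched with 33 promoters. They lie at chr16:23146286-23146535 on the plus strand for Adipoq, chr8:3655520-3655769 on the plus strand for Retn, chr10:79890603-79890852 on the plus strand for Cfd, chr7:79732777-79733026 on the minus strand for Plin1 and chr8:83290098-83290347 on the plus strand for Ucp1. Capitals mark TTNNGCAAT, a sequence of the kind C/EBP proteins bind, and AGGTCA, the element of nuclear receptors such as PPARγ, each read on both strands.
Adipoq: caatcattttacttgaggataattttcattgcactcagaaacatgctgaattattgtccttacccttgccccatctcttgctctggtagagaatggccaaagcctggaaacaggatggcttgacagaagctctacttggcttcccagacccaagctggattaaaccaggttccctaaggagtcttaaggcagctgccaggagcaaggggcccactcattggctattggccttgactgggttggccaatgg
Retn: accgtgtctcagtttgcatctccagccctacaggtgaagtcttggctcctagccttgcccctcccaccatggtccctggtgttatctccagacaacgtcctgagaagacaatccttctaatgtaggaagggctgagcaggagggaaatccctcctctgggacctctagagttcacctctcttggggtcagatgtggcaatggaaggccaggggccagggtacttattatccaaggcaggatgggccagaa
Cfd: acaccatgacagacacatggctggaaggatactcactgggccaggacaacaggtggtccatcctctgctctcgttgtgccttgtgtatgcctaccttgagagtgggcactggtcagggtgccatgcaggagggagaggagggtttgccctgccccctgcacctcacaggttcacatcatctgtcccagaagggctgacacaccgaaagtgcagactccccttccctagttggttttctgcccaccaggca
Plin1: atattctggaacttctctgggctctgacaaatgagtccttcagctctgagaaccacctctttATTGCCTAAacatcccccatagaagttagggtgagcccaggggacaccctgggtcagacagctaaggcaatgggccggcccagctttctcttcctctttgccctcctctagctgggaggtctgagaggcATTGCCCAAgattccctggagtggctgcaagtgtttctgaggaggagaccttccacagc
Ucp1: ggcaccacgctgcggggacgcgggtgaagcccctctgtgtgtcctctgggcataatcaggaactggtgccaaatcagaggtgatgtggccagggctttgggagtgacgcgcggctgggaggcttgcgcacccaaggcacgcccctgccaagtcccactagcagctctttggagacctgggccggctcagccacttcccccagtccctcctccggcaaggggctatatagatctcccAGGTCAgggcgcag
TTNNGCAAT was found at -188 to -180 and at -59 to -51 from the start of Plin1, and at 1 of the promoters of Cidec, so that 2 of the 33 promoters held it (6.06%), against 1.93% of all 32851 promoters of the same length. AGGTCA was found in 7 of the 33 (21.2%), against 14% of all promoters, and stood at -14 to -9 in Ucp1. The 7 promoters belonged to 5 genes (Aqp7, Plin2, Plin5, Pparg and Ucp1). The windows of Aqp7 overlapped and shared a site, which was thus counted more than once. DR1, the direct repeat of AGGTCA with a spacing of 1 base, was found in 0 of the 33 and in 0.0335% of all promoters, and the TATAAA element in 3 of the 33 (9.09%), against 12.4% of all. No match was found in the windows of Adipoq, Retn and Cfd. These matches describe letters in short windows and no binding was measured here.

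The defining genes of adipocytes were present in every nerve, and they divided the mice in another way than the genotypes did. Adipoq, which encodes adiponectin, stood at 17.6, 22.2 and 20.1 in cKO nerves, at 25.3, 3.04 and 30.8 in cHet nerves and at 126, 4.12 and 193 in control nerves. Control mice ID-2743 and ID-2754 were far above the rest, cHet mouse ID-2745 and control mouse ID-2746 were far below, and the other 5 nerves lay close together. The control group thus held both high nerves and a low one, and its values enclosed those of all cKO nerves. The cHet values lay within the control values except in mouse ID-2745, which was below the lowest control.

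The other adipokines had the same 2 control nerves highest and the same 2 nerves lowest. Retn, which encodes resistin, stood at 15.4, 18.2 and 15.1 in cKO nerves, at 21.7, 1.60 and 19.8 in cHet nerves and at 121, 3.38 and 129.5 in control nerves. Cfd, which encodes adipsin and was the most abundant adipokine, stood at 136, 188 and 148 in cKO nerves, at 235, 18.5 and 231 in cHet nerves and at 916, 27.8 and 1078 in control nerves. Lep, the leptin gene, was low throughout, at 1.84, 1.04 and 0.834 in cKO nerves, at 1.13, 0.219 and 2.29 in cHet nerves and at 11.5, 0.324 and 8.07 in control nerves. In each of these genes the groups overlapped, and the highest nerve exceeded the lowest by 52.6-fold (Lep) to 80.8-fold (Retn). Summed over the 6 defining adipocyte genes (the 4 adipokines, Plin1 and Cidec), the nerves reached 188, 247 and 199 in the cKO, 302, 25.2 and 310 in the cHet and 1284, 37.3 and 1617 in the control. In these bulk samples fewer adipocytes in a nerve and less of these RNAs per adipocyte cannot be told apart.

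**Figure D1:**
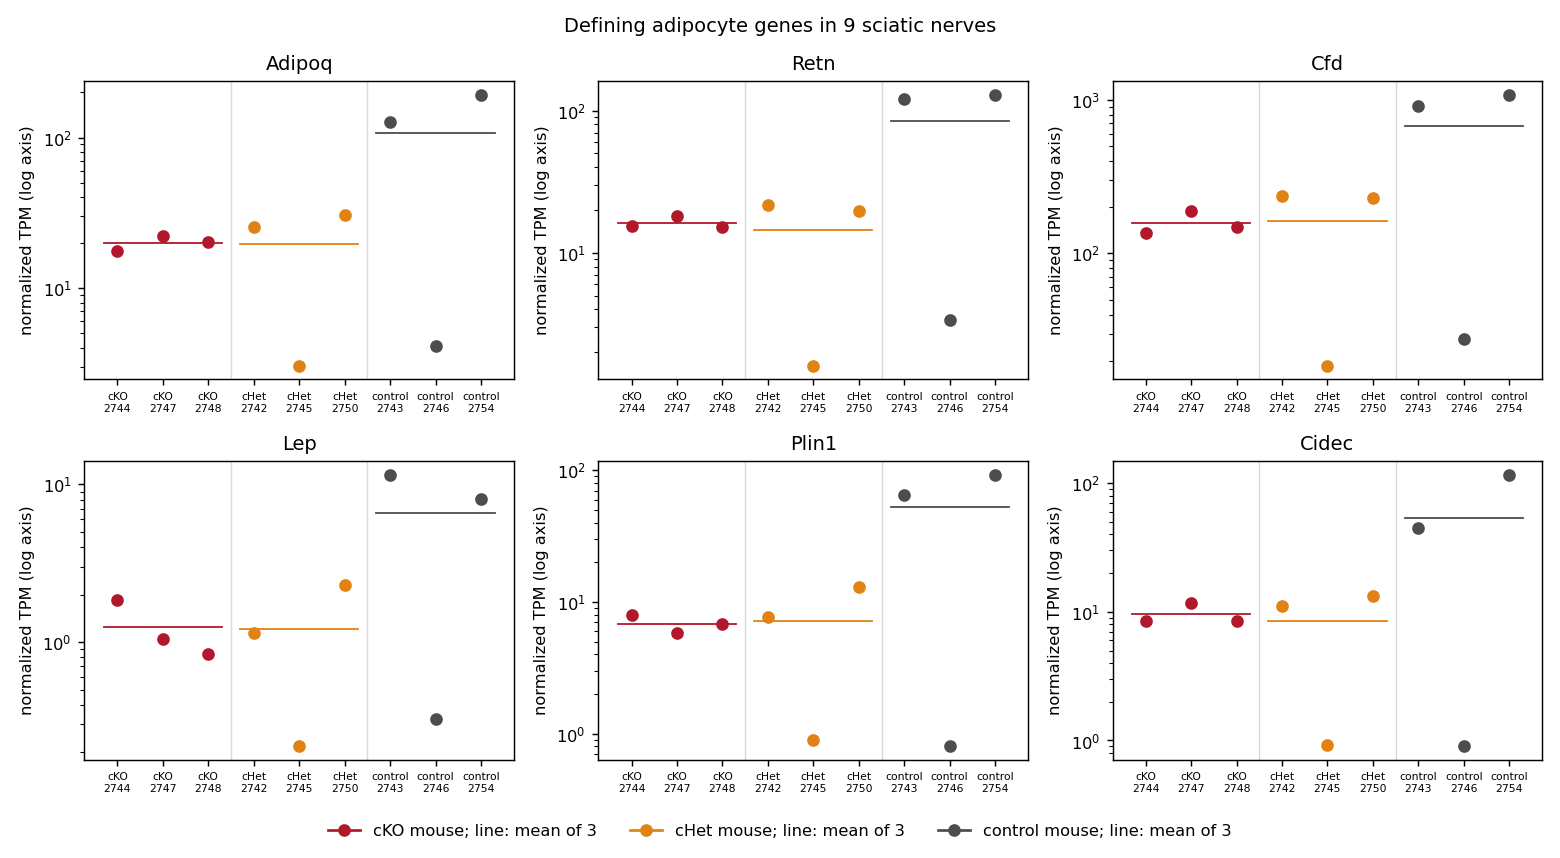
Normalized TPM (log axis) of 6 defining adipocyte genes in the 9 nerves, 1 point per mouse, with a line at the mean of each group of 3. In every panel control mice ID-2743 and ID-2754 are highest and cHet mouse ID-2745 and control mouse ID-2746 lowest, as for Adipoq at 126 and 193 against 3.04 and 4.12, and the 3 cKO nerves lie together between them.

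Among the lipid droplet proteins, Plin1 and Cidec spanned the widest ranges. Plin1, the perilipin that guards the droplet against lipases, stood at 7.90, 5.77 and 6.85 in cKO nerves, at 7.65, 0.890 and 12.9 in cHet nerves and at 64.7, 0.802 and 92.4 in control nerves. Cidec, whose product enlarges droplets by fusion, stood at 8.50, 11.6 and 8.52 in cKO nerves, at 11.1, 0.920 and 13.3 in cHet nerves and at 44.6, 0.903 and 116 in control nerves. Both had the same 2 nerves highest and the same 2 lowest as Adipoq, although control mouse ID-2746 was the lowest for Plin1 and Cidec and cHet mouse ID-2745 for Adipoq. Plin4, a coat protein abundant in white fat, had the same extremes over a narrower range of 1.87 to 40.1. Plin2, a droplet protein that many cell types make, differed by no more than 1.84-fold between any of the nerves, with 30.2 to 55.6. Plin5, a perilipin of oxidative tissues, stayed between 0.426 and 1.53.

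The lipases divided in a similar way. Lipe, the hormone-sensitive lipase, stood at 19.9, 18.7 and 14.7 in cKO nerves, at 18.2, 13.9 and 25.2 in cHet nerves and at 61.8, 12.6 and 100.1 in control nerves. Pnpla2, which encodes the lipase that starts triglyceride breakdown, ranged over the nerves from 48.4 to 217, again with control mice ID-2743 and ID-2754 on top. Mgll, which encodes the monoglyceride lipase and is used by many cell types, was nearly level over the 9 nerves at 86.4 to 111. Pnpla3, an acyltransferase and lipase, stood apart from these, with 5.17, 5.31 and 15.7 in cKO nerves, 20.3, 2.99 and 11.6 in cHet nerves and 58.7, 31.2 and 23.2 in control nerves. All 3 control nerves, including mouse ID-2746 with its little Adipoq, were above all cKO and cHet nerves for Pnpla3.

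Among the genes of uptake and transport, Fabp4, the fatty acid carrier of adipocytes, had the highest mean of all members. It reached 166, 194 and 191 in cKO nerves, 221, 32.0 and 250.4 in cHet nerves and 879, 56.9 and 1376 in control nerves. Lpl, the lipoprotein lipase, ranged from 25.4 to 179, Aqp7, a glycerol channel, from 1.39 to 12.9, and Gpihbp1, which anchors that lipase to capillaries, from 7.01 to 22.2, each with the same 2 control nerves highest. Fabp5, a fatty acid carrier that many cells make, did not follow them and stood at 113, 148 and 139.8 in cKO nerves, at 217, 203 and 155 in cHet nerves and at 222, 241 and 181 in control nerves. Every cKO nerve was below every cHet and every control nerve for Fabp5.

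The metabolic enzymes Car3 and Pck1 were among the genes with the widest ranges. Car3, a carbonic anhydrase abundant in fat and in slow muscle, stood at 78.0, 57.5 and 113 in cKO nerves, at 94.4, 10.9 and 128 in cHet nerves and at 725, 10.9 and 757 in control nerves. Pck1, which feeds glycerol synthesis in fat, stood at 3.12, 3.64 and 4.84 in cKO nerves, at 8.66, 0.860 and 14.0 in cHet nerves and at 26.3, 0.795 and 117 in control nerves, a 148-fold range. Aoc3, an amine oxidase of adipocytes and smooth muscle, ranged from 3.32 to 20.2. Gpd1, which makes glycerol phosphate, varied only from 41.6 to 128. The receptors were low, with 1.41 to 19.0 for Adrb3, the adrenergic receptor of fat, and 0.164 to 3.64 for Acvr1c, an activin receptor, and both were highest in control mice ID-2743 and ID-2754.

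The transcription factors that define the lineage varied over narrower ranges than the adipokines. Pparg ranged from 1.41 to 15.2 and Cebpa from 8.91 to 69.5, with the extremes in the same 4 nerves as for Adipoq. Cebpb, an early adipogenic factor that also acts in inflammation, stood at 18.0, 27.4 and 21.2 in cKO nerves, at 11.9, 11.5 and 16.3 in cHet nerves and at 22.5, 17.9 and 36.2 in control nerves. All cHet nerves were below all cKO and control nerves for Cebpb.

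Over the 27 tested genes of white or general fat, 22 had control mice ID-2743 and ID-2754 as their highest nerves, and Pnpla3, Mgll, Cebpb, Slc2a4 and Fabp5 were the exceptions. Slc2a4, the insulin-responsive glucose transporter of fat and muscle, was highest in control mouse ID-2743 and cKO mouse ID-2748. For 19 of the 27, cHet mouse ID-2745 and control mouse ID-2746 were the lowest. A single nerve, that of control mouse ID-2754, held the highest value of 22 genes and control mouse ID-2743 that of 4 more. The median gene of this list had a range of 3.04 on the log2 scale. On that scale, the median gene lay above its own median over the 9 nerves by 1.80 in control mouse ID-2743 and by 2.13 in control mouse ID-2754, and the corresponding value was -0.71 in cHet mouse ID-2745 and -0.66 in control mouse ID-2746.

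Several genes kept their proportion to Adipoq within a narrow range although Adipoq itself spanned 63.6-fold. The ratio of Retn to Adipoq stayed between 0.527 (cHet mouse ID-2745) and 0.962 (control mouse ID-2743), that of Cfd between 5.59 (control mouse ID-2754) and 9.29 (cHet mouse ID-2742), and that of Fabp4 between 6.98 (control mouse ID-2743) and 13.8 (control mouse ID-2746). On log2(value + 0.5), 8 genes had a ratio to Adipoq with a range under 2. These were Retn (0.70), Cfd (0.76), Fabp4 (0.84), Plin1 (0.90), Cidec (0.99), Car3 (1.22), Pck1 (1.74) and Plin4 (1.91). None of the 7 tested brown fat genes did so. Lep had 2.20 on this scale, where the added 0.5 weighs on its low values. Its plain ratio to Adipoq spanned 2.52-fold, less than that of Plin4 (4.03-fold). These proportions describe 9 libraries, of which 4 carry the extremes.

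**Figure D2:**
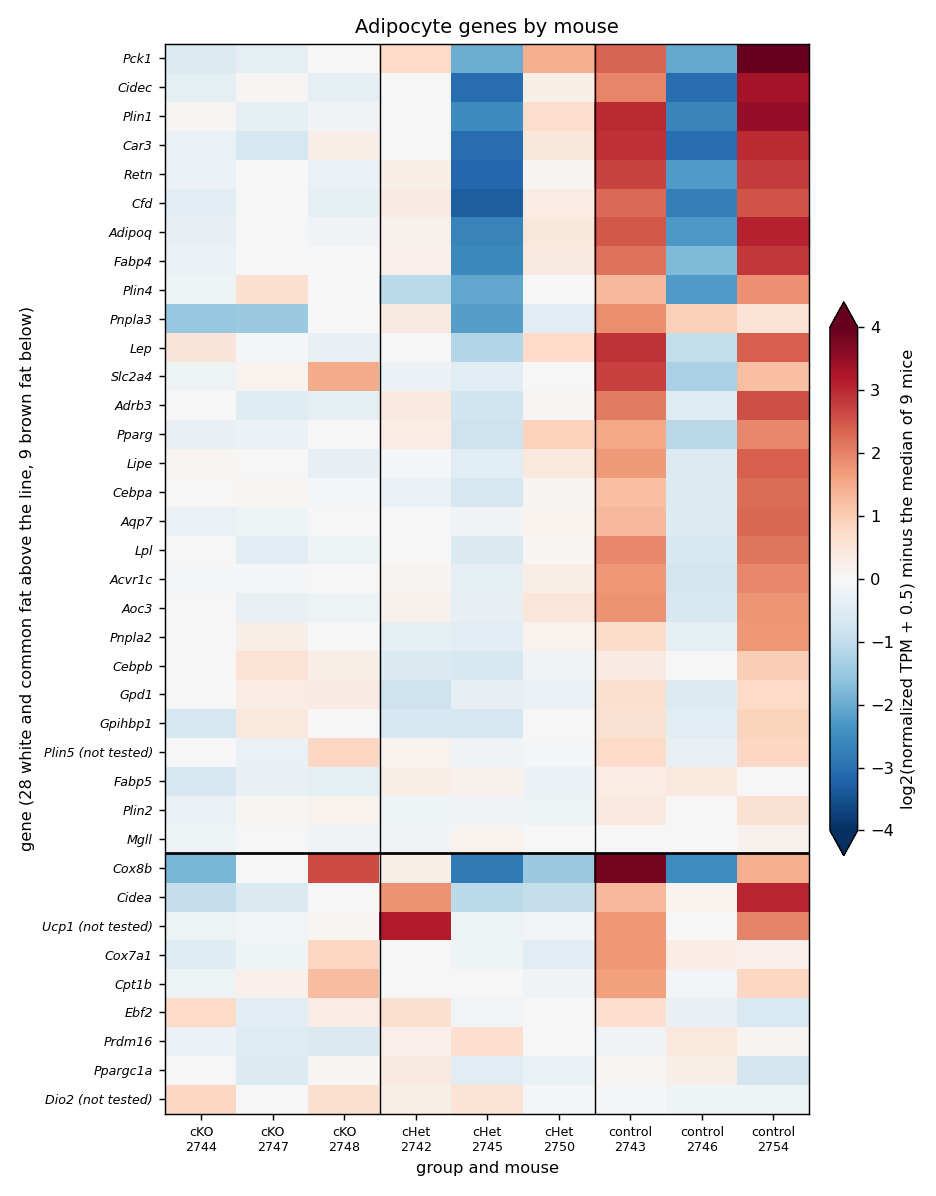
Heat map of 37 adipocyte genes (rows) in the 9 nerves (columns), as log2(normalized TPM + 0.5) minus the median of the 9 mice, with 28 genes of white or general fat above the line and 9 of brown fat below, each sorted by range. Control mice ID-2743 and ID-2754 are red and cHet mouse ID-2745 and control mouse ID-2746 blue for most of the upper rows. The brown fat rows follow this order less closely, with Ucp1 and Cidea also red in cHet mouse ID-2742 and Cox8b in cKO mouse ID-2748.

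The genes of brown fat followed this pattern less closely. On the log2 scale, the median brown fat gene lay above its own median by 1.31 in control mouse ID-2743 and by 0.19 in control mouse ID-2754. The value was -0.18 in cHet mouse ID-2745 and 0.14 in control mouse ID-2746. Cidea, Cox8b, Cox7a1 and Cpt1b were above their own medians in both control mice ID-2743 and ID-2754, and Ppargc1a, Ebf2 and Prdm16 were not. None of the 7 that were tested had control mice ID-2743 and ID-2754 as the highest nerves, and only Cox8b had cHet mouse ID-2745 and control mouse ID-2746 as the lowest. Ucp1, which encodes the uncoupling protein, was listed at 0, 0.0307 and 0.104 in cKO nerves, at 4.66, 0 and 0.0295 in cHet nerves and at 1.40, 0.0758 and 1.77 in control nerves. It was thus above 1 in 3 nerves only, and its highest value belonged to cHet mouse ID-2742, whose Adipoq was 25.3. Cidea, a droplet protein of brown fat, was high in the same 3 nerves, with 0.133, 0.328 and 0.737 in cKO nerves, 3.78, 0.0972 and 0.134 in cHet nerves and 2.56, 0.866 and 9.68 in control nerves. All cKO nerves were below all control nerves for Cidea. In cHet mouse ID-2750, whose Adipoq (30.8) was slightly above that of cHet mouse ID-2742, Ucp1 and Cidea stood at 0.0295 and 0.134.

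Cox8b, Cox7a1 and Cpt1b are oxidative genes that brown fat shares with muscle, and their highest nerves were control mouse ID-2743 and cKO mouse ID-2748. Cox8b, a subunit of cytochrome oxidase, stood at 6.45, 24.2 and 152 in cKO nerves, at 29.5, 3.01 and 8.41 in cHet nerves and at 351, 3.94 and 66.8 in control nerves. Cox7a1, another subunit, stood at 47.0, 57.5 and 116 in cKO nerves, at 65.3, 57.7 and 49.0 in cHet nerves and at 219, 80.0 and 74.6 in control nerves. The same nerves were highest in the summed level of 12 skeletal muscle markers, at 18725 in control mouse ID-2743 and 9854 in cKO mouse ID-2748, against 39.6 to 690.2 in the other 7. All 12 muscle markers were above 0 in both of these nerves, and also in the others except cHet mouse ID-2750 and control mouse ID-2754, with 1 marker at 0 each. In control mouse ID-2754 and cHet mouse ID-2742, where the muscle markers summed to 56.5 and 39.6, Cox8b stood at 66.8 and 29.5. The part of muscle RNA in these levels was not tested. Cpt1b, the carnitine transferase of muscle and brown fat mitochondria, ranged from 3.89 to 15.2.

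The remaining brown fat genes varied little and in no common order. Ppargc1a, a coactivator of mitochondrial genes, ranged from 1.86 to 4.52, Ebf2, a factor of brown fat precursors, from 8.14 to 22.2, and Dio2, a thyroid hormone deiodinase, from 0.428 to 1.37. Dio2, which was too low to be tested, was lowest in control mice ID-2746 and ID-2754. All its cKO values (0.552 to 1.37) were above all its control values (0.428 to 0.518). Prdm16, a regulator of brown fat identity that is also made in other cells, stood at 12.4, 10.2 and 9.86 in cKO nerves, at 17.1, 23.9 and 14.8 in cHet nerves and at 13.4, 20.0 and 16.0 in control nerves. It was highest in cHet mouse ID-2745 and control mouse ID-2746, the nerves with the least Adipoq.

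**Figure D3:**
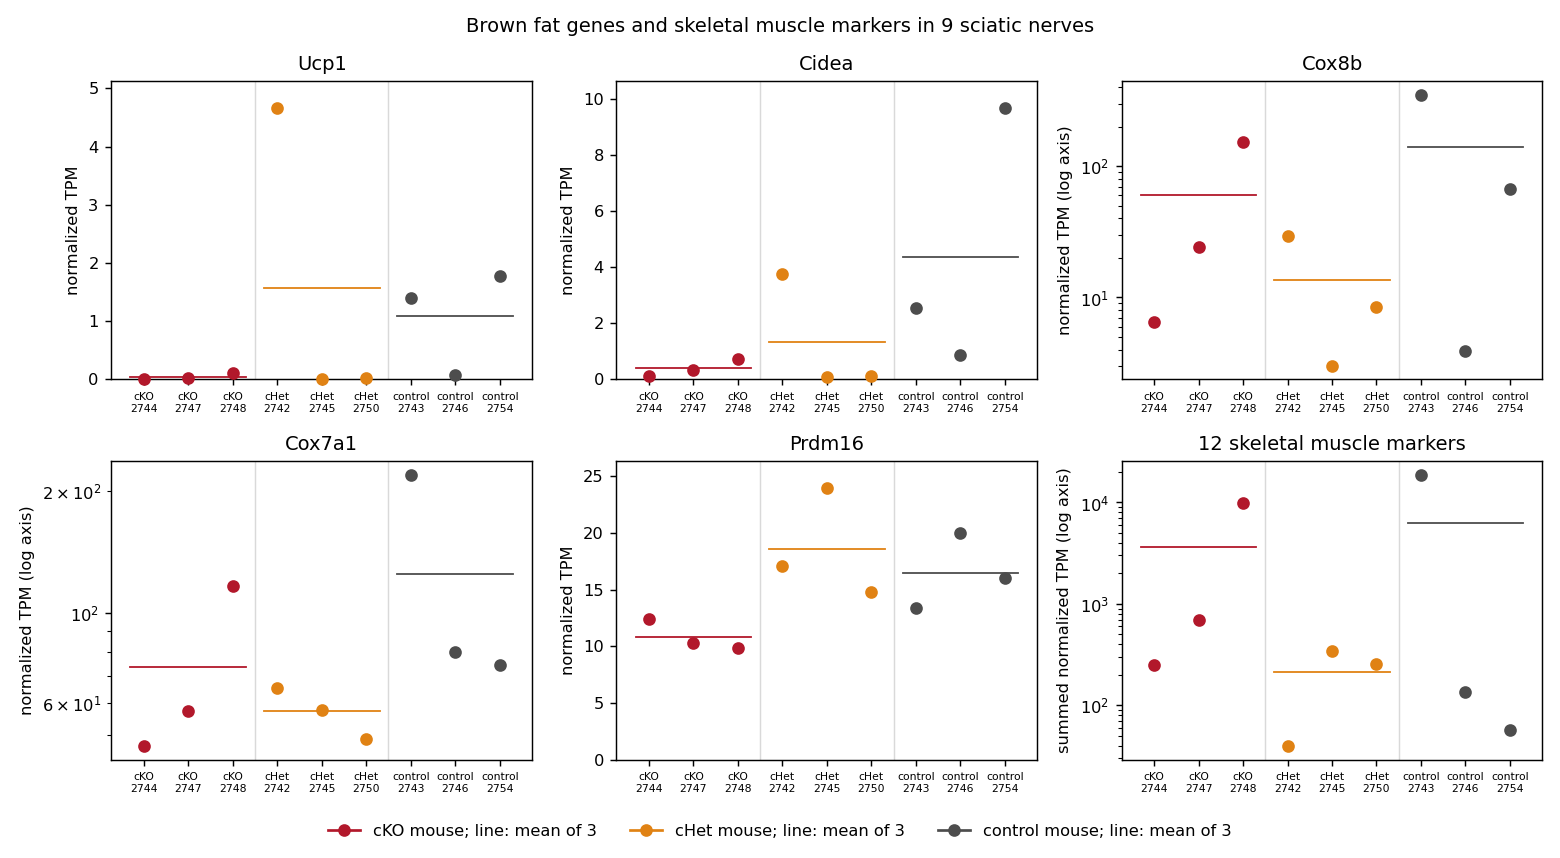
Normalized TPM of 5 brown fat genes and the summed normalized TPM of 12 skeletal muscle markers in the 9 nerves, with a line at the mean of each group of 3 (log axes for Cox8b, Cox7a1 and the muscle markers). Ucp1 and Cidea are high in cHet mouse ID-2742 and control mice ID-2743 and ID-2754, and Cox8b, Cox7a1 and the muscle markers are highest in control mouse ID-2743 and cKO mouse ID-2748.

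Against this spread, the genotype groups were compared with limma on log2(value + 0.5), with p-values adjusted over all 15014 genes. In the cKO against the control, 0 of the 34 members passed an adjusted p of 0.05 in either direction, where 0.932% of all tested genes were called higher and 0.633% lower. At an unadjusted p under 0.05 there were 0 members higher and 4 lower (11.8%), where 6.45% of all genes were higher and 6.44% lower. The 27 white and general fat genes had a median log2 fold change of -1.02 and the 7 brown fat genes one of -0.57, against -0.02 for all genes, and 33 of the 34 members had a negative value. The intervals were wide. For Adipoq the log2 fold change was -1.25 (95% interval -4.35 to 1.85, adjusted p = 0.790), with 20.0 ± 2.30 in the cKO and 108 ± 95.8 in the control (SD, n = 3 mice each). Retn had -1.24 (-4.39 to 1.91), Lep -1.38 (-3.55 to 0.79) and Cfd -0.96 (-4.24 to 2.33). Since most members followed the same 4 nerves, their directions are not independent of each other.

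The median of the white and general fat genes depended on single control mice. It was -0.30 without control mouse ID-2754, -0.58 without control mouse ID-2743 and -1.95 without control mouse ID-2746. In the last case 6 members were called lower in the cKO (Lipe, Lpl, Aoc3, Acvr1c, Aqp7 and Adrb3, adjusted p 0.00648 to 0.0497 from limma), where 0.422% of all genes were called lower and 0.589% higher. That fit left only the control nerves high in Adipoq (126 and 193), so that this direction was largely fixed by the omission. The median of the brown fat genes turned positive without control mouse ID-2743 (0.039) and with groups taken from the genotype field (0.19). By that field ID-2748 is the only cKO mouse, and its nerve was high in skeletal muscle markers. Without both control mice ID-2743 and ID-2754, the median of the white and general fat genes was 0.67 and the value for Adipoq 2.14. These nerves were left out after their adipocyte values were seen, so that the turn of sign was largely fixed by the choice, and a single control nerve with little Adipoq was left.

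The members nearest to a call between cKO and control were not the defining adipocyte genes. Fabp5 had a log2 fold change of -0.68 (95% interval -1.06 to -0.30, adjusted p = 0.103 from limma), and with the libraries rescaled to the same sum it passed at -0.75 (adjusted p = 0.0445), where the median of all genes was -0.09 and 0.772% of all genes were called lower and 0.812% higher. Pnpla3 had -2.13 (-3.69 to -0.57, adjusted p = 0.214), Prdm16 -0.57 (-1.03 to -0.10, adjusted p = 0.271) and Adrb3 -1.68 (-3.31 to -0.05, adjusted p = 0.370). Cidea followed with -2.01 (-4.10 to 0.07, adjusted p = 0.407 from limma). Cox8b, at -0.67 (-4.45 to 3.12, adjusted p = 0.926), was far from a call. The groups did not overlap for 4 of the 34 members, all lower in the cKO (Cidea, Pnpla3, Prdm16 and Fabp5, 11.8%), where 8.57% of all genes were wholly lower and 8.85% wholly higher.

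The cHet was likewise compared with the same control mice, so that these values share the control spread described above. No member was called, and neither was any other gene (0.00% higher and 0.00% lower), while at an unadjusted p under 0.05 there were 122 genes higher (0.813%) and 286 lower (1.90%). Among the members 0 were higher and 4 lower (11.8%) at that level. The 4 were Cebpb, at -0.88 (95% interval -1.49 to -0.27, adjusted p = 0.99998 from limma), Pnpla3, at -1.89 (-3.45 to -0.33), Plin2 and Gpd1. The median log2 fold change was -1.23 for the white and general fat genes and -0.83 for the brown fat genes, against -0.03 for all genes, with 31 of 34 negative. For Adipoq the value was -1.77 (-4.87 to 1.33). The groups did not overlap for Plin2, Pnpla3, Cebpb and Cox7a1, all lower in the cHet (4 of 34, 11.8%), where 4.41% of all genes were wholly lower and 2.69% wholly higher. Without control mice ID-2743 and ID-2754 the median of the white and general fat genes was 0.65 and the value for Adipoq 1.62.

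Between cKO and cHet, where the control nerves enter only the estimate of the spread, the members showed no common direction. None was called, where 0.932% of all genes were called higher and 0.773% lower, and at an unadjusted p under 0.05 there were 1 member higher and 2 lower, where 7.89% of all genes were higher and 6.69% lower. The medians were 0.28 for the white and general fat genes and 0.02 for the brown fat genes, against 0.02 for all genes, with 20 of 34 positive. Adipoq differed by 0.52 (95% interval -2.58 to 3.62), and by -0.48 without cHet mouse ID-2745, without which the median of the white and general fat genes was -0.34. Cebpb was at 0.73 (0.12 to 1.33, adjusted p = 0.255 from limma), Prdm16 at -0.73 (-1.20 to -0.27, adjusted p = 0.143) and Fabp5 at -0.51 (-0.89 to -0.13, adjusted p = 0.205). The groups did not overlap for Cebpb and Gpd1, higher in the cKO, and for Prdm16 and Fabp5, lower in the cKO (5.88% in each direction), where 13.3% of all genes were wholly higher and 11.0% wholly lower.

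**Figure D4:**
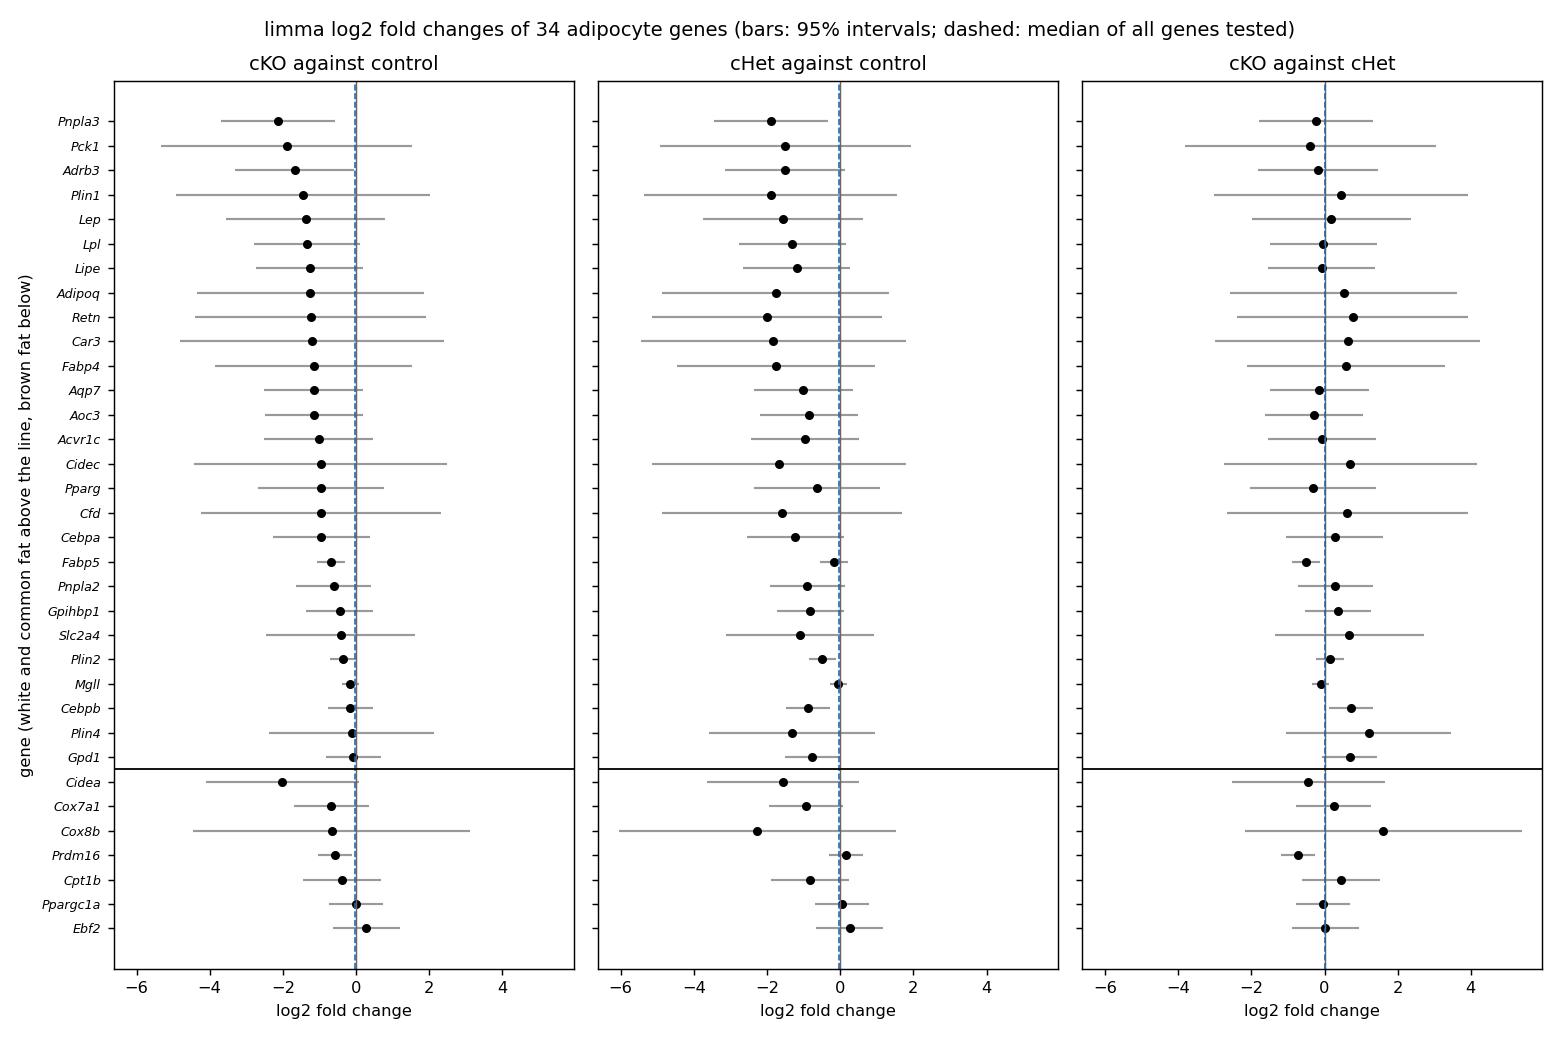
Log2 fold changes from limma of the 34 tested adipocyte genes (rows, white and general fat above the line, brown fat below) in the 3 comparisons, with 95% intervals as bars and the median of all tested genes as a dashed line. The intervals of the defining genes span 0 in every panel, as for Adipoq in the cKO against the control (-4.35 to 1.85). Those of Fabp5, Prdm16 and Mgll are narrower. They span 0 in every panel for Mgll and only in the cHet against the control for Fabp5 and Prdm16.

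A further 40 adipocyte genes that are no members were examined in the same fit, to see whether other fat genes moved. In the cHet against the control 0 of them were called. In the cKO against the control 0 were called higher and 4 lower, where the shares over all genes were 0.932% and 0.633%. In the cKO against the cHet again 0 were called higher and 4 lower, where the shares over all genes were 0.932% and 0.773%. The 4 were the same genes in both comparisons, which share the cKO nerves, and 3 of them make fatty acids. Acly, which supplies acetyl-CoA in the cytosol, stood at 120.0, 117 and 137 in cKO nerves, at 192, 225 and 190.1 in cHet nerves and at 191, 213 and 176 in control nerves. Acaca, which makes malonyl-CoA, stood at 36.8, 35.7 and 49.7 in cKO nerves, at 71.2, 102 and 74.2 in cHet nerves and at 72.3, 77.0 and 95.4 in control nerves. Scd1, which desaturates fatty acids, stood at 146, 167 and 150.0 in cKO nerves, at 307, 400.4 and 290.4 in cHet nerves and at 456, 338 and 294 in control nerves. Myelinating Schwann cells also use these enzymes, and which cells gave these levels was not tested. Npr3, the natriuretic peptide clearance receptor, stood at 6.20, 7.12 and 5.60 in cKO nerves, at 15.1, 17.1 and 12.9 in cHet nerves and at 22.2, 15.3 and 13.4 in control nerves.

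Every cKO nerve was thus below every other nerve for these 4 genes. The log2 fold changes in the cKO against the control were -0.63 for Acly (adjusted p = 0.0346 from limma), -0.999 for Acaca (adjusted p = 0.0402), -1.21 for Scd1 (adjusted p = 0.0172) and -1.33 for Npr3 (adjusted p = 0.0172). Against the cHet they were -0.70, -1.005, -1.09 and -1.19 (adjusted p 0.0233 to 0.0371). These calls were lost under many of the 23 alternatives. Against the control, Acaca was called in 6 of them, Acly in 8, Scd1 in 16 and Npr3 in 17, and against the cHet Acaca in 8, Scd1 and Npr3 in 14 and Acly in 15. The following holds with 1 library left out at a time. Against the control, Npr3 lost its call without cKO mouse ID-2744 or ID-2748 and Scd1 without any one of the cKO mice, with adjusted p up to 0.0922 from limma. Acly and Acaca kept theirs only without cHet mouse ID-2745, with adjusted p up to 0.157 otherwise. Against the cHet each of the 4 lost its call without 6 to 8 of the 9 libraries, among them every cKO and cHet mouse. Over the 40 genes the median was -0.41 in the cKO against the control, -0.27 in the cHet against the control and 0.05 in the cKO against the cHet.

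Of 14 further genes of brown or beige fat, 11 were tested. In the cKO against the control 1 was called higher and 0 lower, where the shares over all genes were 0.932% and 0.633%. In the cKO against the cHet 1 was called higher and 1 lower, where the shares over all genes were 0.932% and 0.773%. Otop1, a proton channel that brown fat and the inner ear express, was called higher in the cKO, with 2.68, 3.74 and 2.74 in cKO nerves, 0.358, 0.182 and 0.410 in cHet nerves and 0.388, 0.543 and 0.777 in control nerves. Its log2 fold change was 1.74 against the control (adjusted p = 0.0296 from limma) and 2.12 against the cHet (adjusted p = 0.0135). It passed the minimum mean only through the cKO nerves, and of 22 alternatives 9 kept the call against the control and 15 that against the cHet. With 1 library left out at a time, its call against the control was kept only without cHet mouse ID-2742 or ID-2745, with adjusted p up to 0.131 from limma otherwise. That against the cHet was lost without any one of the cKO mice or cHet mouse ID-2745 or ID-2750. Pank1, which starts coenzyme A synthesis, was lower in the cKO than in the cHet, with 5.76, 6.005 and 5.65 in cKO nerves and 8.60, 10.8 and 9.69 in cHet nerves (log2 fold change -0.69, adjusted p = 0.0278 from limma), and this call was kept in 12 of 23 alternatives and lost without any one of the cKO mice or cHet mouse ID-2745 or ID-2750.

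**Figure D5:**
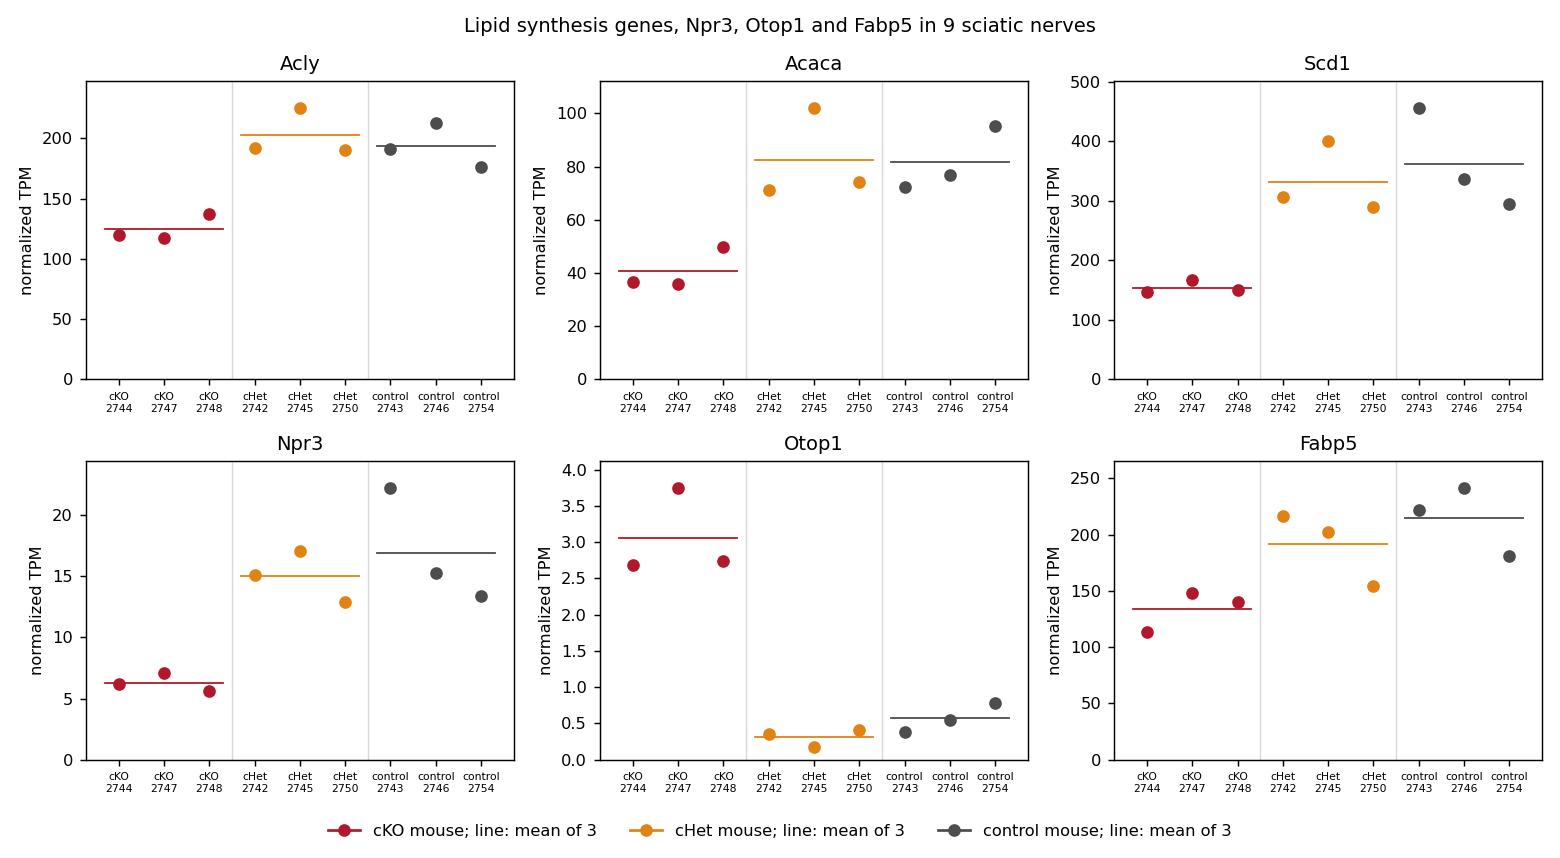
Normalized TPM of Acly, Acaca, Scd1, Npr3, Otop1 and Fabp5 in the 9 nerves, with a line at the mean of each group of 3 and axes from 0. The 3 cKO nerves lie below all cHet and control nerves for every gene but Otop1, where they lie above them, as in Scd1 with 146 to 167 in the cKO against 290.4 or more elsewhere.

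Markers of other cell types were set beside the adipocyte genes. None of the 8 endothelial, 8 macrophage, 9 Schwann cell, 6 fibroblast, 4 perineurial, 8 neuronal, 12 skeletal muscle or 5 red blood cell markers was called in any comparison. Over all genes, 0.932% were called higher and 0.633% lower in the cKO against the control. The shares were 0.932% and 0.773% in the cKO against the cHet, and 0.00% and 0.00% in the cHet against the control. With shares this low, the absence of calls says little about lists this small. The endothelial markers summed to 256 to 378 over all nerves and the Schwann cell markers to 75900 to 132362, while the defining adipocyte genes summed to 25.2 to 1617. Wide ranges were also seen for the red blood cell markers (1275 to 8115) and the skeletal muscle markers (39.6 to 18725). The neuronal markers were highest in control mouse ID-2746 (2936), cKO mouse ID-2748 (1205) and cHet mouse ID-2742 (1093), against 84.5 to 265 in the others. Of the 8 genes listed as adipose progenitor markers, 7 were tested and 0 called, beside the same shares over all genes. They summed to 192 to 462, highest in control mouse ID-2743. The part of these cell types in the adipocyte levels was not tested.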

How the data were processed

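RNA was extracted from sciatic nerves, and libraries were made with the Illumina TruSeq kit. The authors deposited 1 table of 36121 genes by 9 libraries, a signal in normalized TPM whose sums per library (934932 to 1158094) show further scaling. Per the labels kallisto 0.44.0, sleuth 0.30.0 and GRCm38 were used, and how libraries were scaled is not stated there. The depth behind a value, and so its counting error, is unknown from TPM. Groups were taken from the sample titles.

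Symbols were matched by Ensembl identifier. Genes with a mean of at least 1 were taken as log2(value + 0.5), which understates changes of low genes, and fitted over the 9 libraries with limma 3.58.1 in R 4.3.3 (eBayes with trend, Benjamini-Hochberg over all tested genes, threshold 0.05). The fit was tested on simulated data with independent noise in each gene. That test does not cover genes that move together, as most members here did. The members, lists and tests were chosen with earlier results of these data known. Values per mouse are given for the adipokines, for members with the widest ranges of each role, for members nearest to a call and for most brown fat genes, and up to 6 called genes of another list are named. Alternatives were other pseudocounts, filters, scalings, models and groupings, and leaving out libraries. Promoters were searched in the 250 bases before each RefSeq start.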

Additional observations from a re-analysis of the deposited data

How the results depend on the processing

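Each group held 3 mice, and the defining adipocyte genes varied widely within groups (SD of 95.8 around a mean of 108 for Adipoq in the control), so that changes of these genes within their intervals were not detectable here. Of the 12 alternatives other than leaving out libraries, 1 changed a count of called members, namely rescaling to the same sum, with 1 (Fabp5) in the cKO against the control. Rescaling moved the median of all genes to -0.12 in the cKO against the cHet and gave 122 higher and 116 lower against the control, where the main fit gave 140 and 95, and 90 higher and 202 lower against the cHet, where it gave 140 and 116. The total of 235 genes called between cKO and control was 50 with only these groups fitted. The total of 256 between cKO and cHet was 168 without a filter and 848 with array weights. Between cHet and control it was 2 without a filter and 1 without the trend. By the genotype field ID-2748, high in skeletal muscle markers, is the only cKO mouse. With that single nerve as the cKO, the brown fat median was 0.19 (cKO against control) and 0.89 (cKO against cHet). Cox8b was then 1.85 in the cKO against the control. Without a filter the brown fat median was -0.29 in the cHet against the control.

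Leaving out 1 library at a time gave 49 to 176 genes called in the cKO against the control, 55 to 270 in the cKO against the cHet and 0 in the cHet against the control. It gave 0 to 6 members called in the cKO against the control and 0 in the other comparisons. The median of white and general fat genes ranged from -1.95 to -0.30 (cKO against control), from -2.05 to -0.59 (cHet against control) and from -0.34 to 0.48 (cKO against cHet), and that of brown fat genes from -0.82 to 0.039, from -1.16 to -0.34 and from -0.18 to 0.35 in the same order of comparisons. Cox8b ranged from -2.37 to 0.78 in the cKO against the control and Adipoq from -0.48 to 1.09 in the cKO against the cHet.

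Sets chosen after the values were seen were also left out. Without control mice ID-2743 and ID-2754, high in adipocyte markers, a single control nerve was left, assumed to vary like the other groups, and the direction was largely fixed by the choice. Then 19 genes were called in the cKO against the control, the medians of white and of brown fat genes were 0.67 and 0.13 there and 0.65 and -0.037 in the cHet against the control, and the sign turned for Adipoq (2.14), Lep (1.03), Retn (2.11), Cfd (2.47), Adrb3 (0.20) and Cox8b (2.74) in the cKO and for Adipoq (1.62) in the cHet. Without control mouse ID-2743 and cKO mouse ID-2748, high in skeletal muscle markers, 23 genes were called in the cKO against the control and 40 in the cKO against the cHet. The cause of these differences was not tested.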
